A study of Mus musculus with 2 samples.

Results

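The 10 genes described here are the prostatic spermine-binding protein genes Sbp and Sbpl together with 8 enzymes or regulators of polyamine synthesis and breakdown (Odc1, Amd1, Srm, Sms, Sat1, Smox, Azin1 and Oaz1). They were found on the array by matching the accession of each non-control probe to RefSeq, which gave 15 probes among 41174, of which 14 were detected, and all 10 genes were among 10435 detected genes. Detection required that the scanner software flagged the spot as well above background on both arrays in the transgenic pool, the wild type pool or both. The set was chosen by gene function with the ratios of Sbp and Sbpl in these arrays already known, so those ratios are given as a description. The mice were FVB/N, 6 months old, and the tissue was the dorsolateral lobe of the prostate. RNA of 6 ARR2PB-miR32 transgenic mice was pooled and set against a pool of 6 wild type mice. ARR2PB is a probasin-derived promoter that drives the microRNA in prostate epithelium in response to androgen, and wild type mice carry the endogenous miR-32 gene. The pools were hybridised together on 2 arrays with exchanged dyes, the transgenic pool in Cy3 on array 1 and in Cy5 on array 2. The level of miR-32 itself was not analysed here.

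Polyamines (putrescine, spermidine and spermine) are small cations that bind nucleic acids and are needed for growth, and the prostate makes and secretes unusually large amounts of them. Ornithine is decarboxylated to putrescine, aminopropyl groups are then added to form spermidine and spermine, and acetylation and oxidation run the pathway backwards. Antizyme, induced by polyamines, removes ornithine decarboxylase and limits uptake, and antizyme inhibitor counters antizyme. The spermine-binding protein of the mouse is an androgen-dependent product of prostatic secretion.

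The sequences below are from RefSeq, build GRCm38.p6, written 5′ to 3′. Because the pools differ by genotype label, the mature microRNA that the transgene encodes is shown first. Its endogenous copy lies at chr4:56895272-56895293 on the minus strand, its seed (bases 2 to 8) is in capitals, and 6 mature mouse microRNAs share that seed, miR-32-5p included.
miR-32-5p: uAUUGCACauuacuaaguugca
Windows of 300 bases around the annotated starts of Sbp and Sbpl (250 bases before the start, 50 after it) are shown because both genes were lower in the transgenic pool. They are neighbours on chromosome 17 and lie on opposite strands. Of 3 annotated Sbp starts, the one nearest Sbpl is printed, at chr17:23941668-23941967 on the plus strand, and the Sbpl window is chr17:23955224-23955523 on the minus strand. Capitals mark the half-site of the androgen response element (AGAACA, or TGTTCT on the other strand) and the TATA box (TATAAA, or TTTATA on the other strand).
Sbp: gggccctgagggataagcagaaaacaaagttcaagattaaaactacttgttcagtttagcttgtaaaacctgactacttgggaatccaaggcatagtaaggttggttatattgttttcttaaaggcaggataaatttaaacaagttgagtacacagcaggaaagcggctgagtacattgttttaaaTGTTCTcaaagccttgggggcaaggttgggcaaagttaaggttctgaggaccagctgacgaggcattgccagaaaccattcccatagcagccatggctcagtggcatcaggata
Sbpl: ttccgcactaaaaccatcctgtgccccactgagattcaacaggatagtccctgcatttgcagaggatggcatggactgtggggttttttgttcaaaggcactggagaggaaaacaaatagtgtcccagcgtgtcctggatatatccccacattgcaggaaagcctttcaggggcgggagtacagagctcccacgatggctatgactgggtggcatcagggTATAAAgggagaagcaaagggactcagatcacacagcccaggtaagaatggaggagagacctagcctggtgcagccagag

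The printed Sbp window held 1 half-site, beginning 64 bases before the start, and no TATA box, whereas the Sbpl window held a TATA box beginning 30 bases before the start and no half-site. The longest run of identical bases shared by the Sbpl window and any of the 3 Sbp windows was 11 bases. For 8 of the 10 genes 11 windows were at hand. A half-site was present in 2 of the 11 windows (1 of the 3 Sbp windows and that of Sat1). The letters of the TATA box were in 2, those of Sbpl and of Oaz1, where they began only 3 bases before the start. The E-box CACGTG, the motif read by Myc, was in 1 (an Sms window, 196 bases before the start). The same letters occurred on either strand in 19%, 13.6% and 7.15% of all 32851 windows of that length. The full element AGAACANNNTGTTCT, which overlaps the half-site, was in none of the windows of these genes and in 0.00913% of all windows. These are matches of letters and not measured binding sites.

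Each value below is the log2 ratio of the transgenic pool over the wild type pool on an array, and ± is the SD over the 2 arrays. Both arrays hold the same RNA and count as 1 replicate, so there is no test of genotype and no p-value. A gene was called higher or lower where its ratio reached 1.5-fold (0.58 in log2) in the same direction on each array. In whole-tissue RNA, fewer cells of a type and less RNA per cell cannot be told apart.

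Both spermine-binding protein genes were lower in the transgenic pool, by 9.06-fold for Sbp and 4.16-fold for Sbpl. None of the 8 genes of polyamine metabolism was called in either direction. Of all 10 genes, 2 were thus called lower and 0 higher, where 1.3% of all detected genes were called lower and 0.91% higher. Sbp and Sbpl had contributed to the choice of the set, so nothing is read from that share. The median of the 10 mean ratios was 0.01 and their mean −0.51, against a median of −0.06 over all detected genes. The 8 metabolic genes alone had a median of 0.03, and medians of 0.28 on array 1 and −0.13 on array 2.

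Sbp was lower in the transgenic pool on both arrays. Its background-subtracted spot intensity was 4895 on array 1 and 1095.5 on array 2 in the transgenic pool, against 48404 and 71240.5 in the wild type pool. These raw intensities carry the dye, since Cy5 was the weaker colour on array 2. After correction of background and dye its log2 signal was 12.18 and 11.72 in the transgenic pool, against 15.06 and 15.20 in the wild type pool. The arrays were closer to each other within a pool than the pools were. The log2 ratio was −2.88 on array 1 and −3.48 on array 2 (−3.18 ± 0.42), and Sbp was the 2nd lowest of the 10435 detected genes, after Spink1. The scanner software's own log ratios were −3.14 and −3.54, with an error by its spot model of 0.36 and 0.39.

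Sbpl, annotated in RefSeq as like the spermine-binding protein, had a spot intensity of 34006 and 5803.5 in the transgenic pool on arrays 1 and 2, against 110084.5 and 261860 in the wild type pool. Its normalized log2 signal was 14.87 and 14.24 in the transgenic pool, against 16.12 and 17.11 in the wild type pool. The direction was shared by the arrays but the size was not. The log2 ratio was −1.25 on array 1 and −2.86 on array 2 (−2.06 ± 1.14), or 2.38-fold and 7.28-fold lower, and it ranked 12th from the lowest. By the log ratios of the scanner software the arrays were closer, at −1.97 and −2.27 (spot errors 0.27 and 0.29), as they were without background subtraction, at −1.44 and −1.92. Both genes lay at the bright end of the array, where 99.1% of detected probes were dimmer than the Sbp probe and 99.8% dimmer than the Sbpl probe after correction. No spot was saturated. Each gene was read by 1 probe, and how far either probe also binds the other gene's transcript was not tested.

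**Figure D1:**
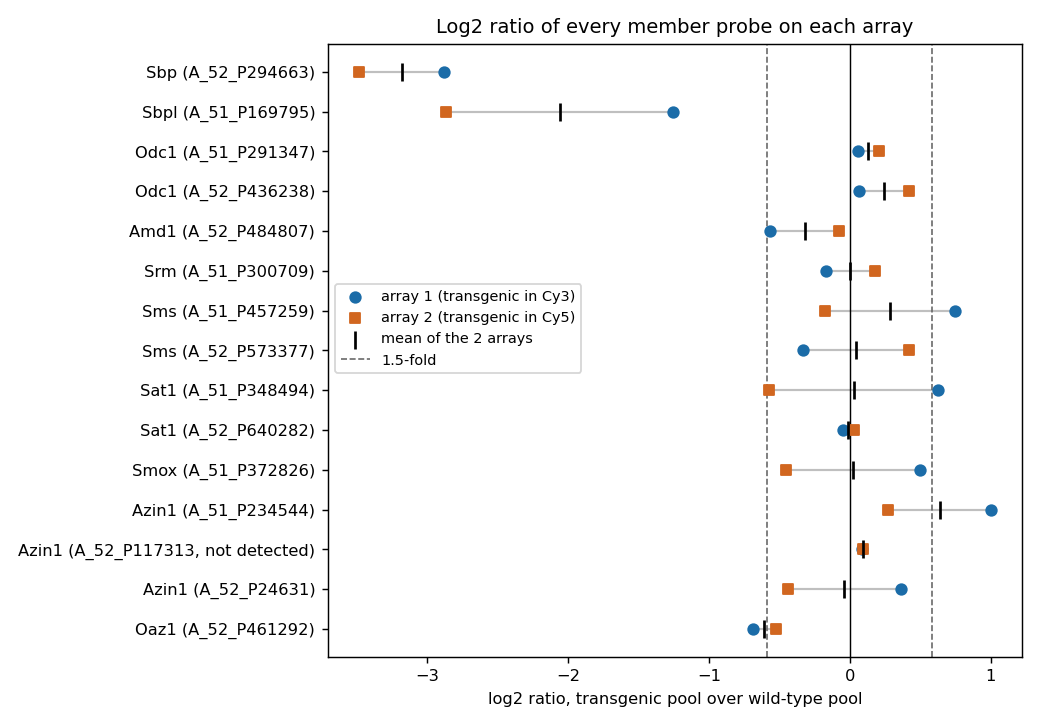
Log2 ratio of the transgenic over the wild type pool for each of the 15 probes, with array 1 as circles, array 2 as squares and their mean as a bar; dashed lines mark 1.5-fold. Sbp and Sbpl lie left of the lower line on both arrays, and no other probe lies beyond a line on the same side on both.

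The genes whose pair of ratios lay nearest to that of Sbp, by Euclidean distance in log2 over the 2 arrays, were Cfd (distance 0.82), Saa3 (0.97) and Spink5 (1.11). Those nearest to Sbpl were Car3 (0.30), Dnajb1 (0.66) and Cd74 (0.67). With 2 arrays of 1 comparison this likeness is only one of size. Cfd, detected through the wild type pool, encodes adipsin, Saa3 an acute phase protein, Spink5 a protease inhibitor, Car3 a carbonic anhydrase, Dnajb1 a heat shock cochaperone and Cd74 the MHC class II invariant chain.

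The synthetic enzymes were not called. Odc1, ornithine decarboxylase and the rate-limiting enzyme of putrescine synthesis, had a normalized log2 signal of 11.54 and 11.56 in the transgenic pool, against 11.48 and 11.36 in the wild type pool. Its ratio was 0.06 on array 1 and 0.21 on array 2 (0.13 ± 0.10). A dimmer Odc1 probe gave 0.06 and 0.42 (0.24 ± 0.25). All 4 values were above 0 and each was under 1.5-fold. With median centring the sign turned, to a mean of −0.83.

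Amd1 encodes S-adenosylmethionine decarboxylase, which supplies the aminopropyl groups. Its log2 signal was 7.22 and 7.43 in the transgenic pool, against 7.78 and 7.51 in the wild type pool, and its ratio was −0.56 and −0.08 (−0.32 ± 0.35). The probe exceeded background on 1 of the 2 arrays in the transgenic pool, so its place among the detected genes rests on the wild type pool. Amd2, a related gene for which RefSeq lists Amd1 among the synonyms, was read by a brighter probe at 0.21 and 0.97 (0.59 ± 0.54), opposite in sign to Amd1. The windows around the Amd1 and Amd2 starts share an unbroken run of 48 bases, and a probe of one may read the other, so both values are uncertain as to gene.

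Srm, spermidine synthase, had a log2 signal of 10.01 and 10.74 in the transgenic pool, against 10.18 and 10.56 in the wild type pool. Its ratio was −0.17 and 0.18 (0.00 ± 0.25), of opposite sign on the arrays. Sms, spermine synthase, had a signal of 8.36 and 8.08 in the transgenic pool, against 7.62 and 8.25 in the wild type pool. The pools overlapped for both synthases. The Sms ratio was 0.74 on array 1 and −0.18 on array 2 (0.28 ± 0.65), while its second, dimmer probe ran the other way on each array (−0.33 and 0.42, 0.04 ± 0.53). The scanner software's log ratios put the brighter Sms probe at 0.36 and 0.51, so that the sign on array 2 depends on the normalization.

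Among the breakdown enzymes, Sat1, the spermidine/spermine acetyltransferase that starts catabolism and export, had the largest SD over the arrays of the 8 metabolic genes. Its log2 signal was 10.01 and 8.45 in the transgenic pool, against 9.38 and 9.03 in the wild type pool. The ratio was 0.63 on array 1 and −0.57 on array 2 (0.03 ± 0.85), of similar size and opposite sign, and the transgenic and wild type signals overlapped. A second Sat1 probe gave −0.05 and 0.03 (−0.01 ± 0.05). Smox, spermine oxidase, which turns spermine back to spermidine, had a signal of 7.34 and 6.92 in the transgenic pool, against 6.84 and 7.38 in the wild type pool. The Smox ratio was 0.50 and −0.45 (0.02 ± 0.67), and its probe, like that of Amd1, exceeded background in the transgenic pool on only 1 array.

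The antizyme pair lay on opposite sides of 0, and neither was called. Oaz1, antizyme, which targets ornithine decarboxylase to the proteasome, had a log2 signal of 10.29 and 10.56 in the transgenic pool, against 10.98 and 11.09 in the wild type pool. The ratio was −0.68 on array 1 and −0.53 on array 2 (−0.61 ± 0.11), or 1.52-fold lower on average. The value on array 2 missed the 1.5-fold limit, but Oaz1 was called lower by the log ratios of the scanner software (−0.59 and −0.64), by the authors' deposited table (−0.59 and −0.67) and after median centring (−0.74 and −2.33). These are not separate readings. The deposited ratios matched those of the scanner software, and with median centring the median of all detected genes was itself −0.57. Of the 8 metabolic genes it had the smallest SD over the arrays after Odc1.

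Azin1, antizyme inhibitor, a relative of ornithine decarboxylase that has no enzyme activity and sequesters antizyme, had a signal of 11.75 and 11.002 in the transgenic pool, against 10.75 and 10.73 in the wild type pool. Its ratio was 1.00 on array 1 and 0.27 on array 2 (0.64 ± 0.51), above 0 on both but past 1.5-fold on array 1 alone. The other detected Azin1 probe, dimmer, gave 0.36 and −0.44 (−0.04 ± 0.57), and the third, not detected, gave 0.08 and 0.10. The positive value therefore rests on 1 of 2 detected probes, and it was −0.30 with median centring, where all detected genes had a median of −0.57.

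**Figure D2:**
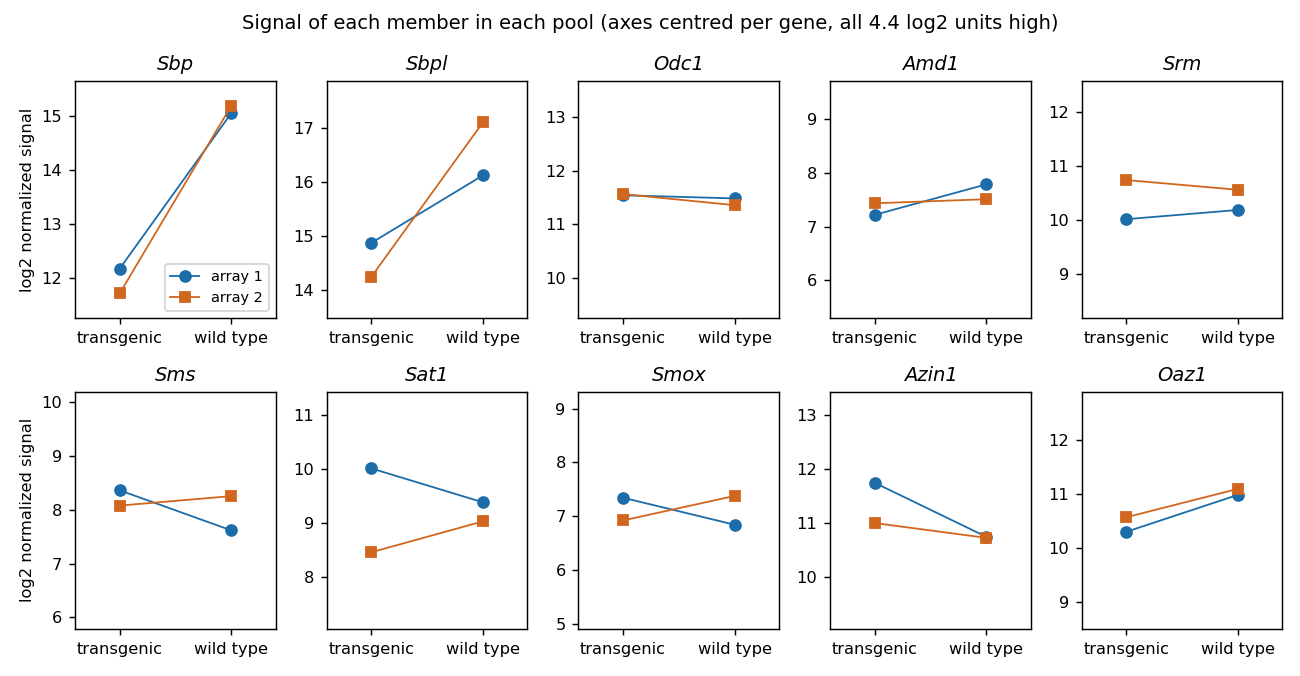
Normalized log2 signal of the probe used for each gene in the transgenic and the wild type pool, one line per array; all panels span the same number of log2 units. The lines run the same way on both arrays for Sbp, Sbpl, Amd1 and Oaz1 (lower) and for Odc1 and Azin1 (higher). Of all detected genes 45.4% had the same sign on both arrays. Those of Srm, Sms, Sat1 and Smox cross or run in opposite directions.

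Of the 10 genes, 6 had the same sign on both arrays and 4 had opposite signs. Over all detected genes 45.4% had the same sign, and the median SD over the arrays was 0.28. The Pearson correlation of the ratios between the arrays over all detected genes was −0.03. Since both arrays hold the same RNA, that SD covers the spread of dye and array, and not the variation between mice or pools. The metabolic genes' ratios can be read against it for technical spread only. The probes of 8 genes exceeded background on each array in the transgenic pool, against all 10 in the wild type pool. With detection required in both pools, 6133 of the 10435 detected genes remained. The transgenic pool was in Cy5 on array 2, where 21.1% of spots exceeded background, against 57% in Cy3. Of the 4 genes with more than 1 detected probe, both probes of Odc1 and Sms had mean ratios above 0, and those of Sat1 and Azin1 differed in sign.

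**Figure D3:**
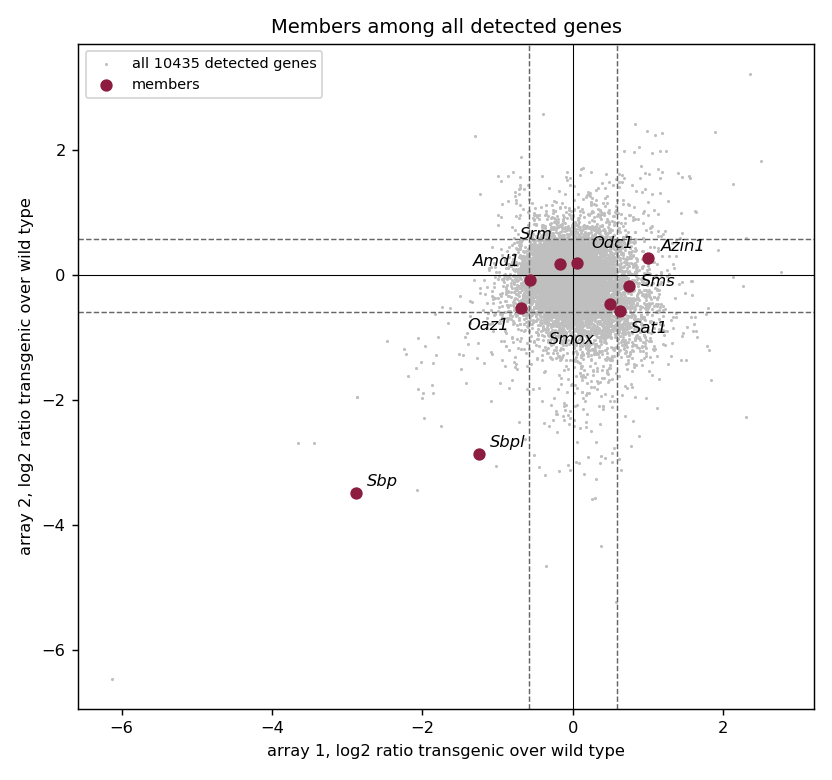
Log2 ratio on array 1 (x axis) and array 2 (y axis) for all 10435 detected genes in grey, with the 10 genes marked; dashed lines mark 1.5-fold. Sbp and Sbpl lie in the lower left corner beyond both lines, and the other 8 lie within or beside the central cloud.

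The rest of the pathway was read from a list of 35 further polyamine genes, of which 26 were detected. By the same rule 0 were higher and 0 lower, with a median ratio of −0.05. On both arrays 3 were above 0 and 8 below 0, and 15 had opposite signs. Among 9 detected genes of synthesis and precursor supply (median −0.20) the largest mean ratios were those of Amd2, given above, and Oat. Oat, ornithine aminotransferase, which links ornithine to glutamate and proline, was at −0.51 and −0.60 (−0.55 ± 0.07). Arg2, the mitochondrial arginase that makes ornithine, was at −0.49 and −0.41 (−0.45 ± 0.06). Oat and Arg2 had small spreads between the arrays, and neither reached 1.5-fold on each.

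The median was 0.01 for 3 detected breakdown genes (Paox, Sat2 and Aldh9a1) and 0.05 for 7 detected transport genes, 6 of which had opposite signs on the arrays. Oaz2, Dhps, Dohh and Myc are named for their roles, after their values were seen. The single other antizyme detected, Oaz2, was at −0.15 ± 0.10 by its brightest probe. Its 4 probes all had means below 0, the highest being −0.02. The arrays differed in sign for some of them, at 0.33 and −0.69 and at −0.25 and 0.21. Hypusine, a modified lysine made from spermidine, is added to the translation factor Eif5a by Dhps and Dohh. Eif5a was at 0.19 and −1.23 (−0.52 ± 1.00), with a second probe at −1.06 and −0.40, while Dhps was at 0.16 ± 0.31 and Dohh at −0.01 ± 0.04. Myc, which activates Odc1 transcription, was at −0.15 ± 0.13 by its brightest probe, and its other probes had means of −0.21 and 0.45.

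**Figure D4:**
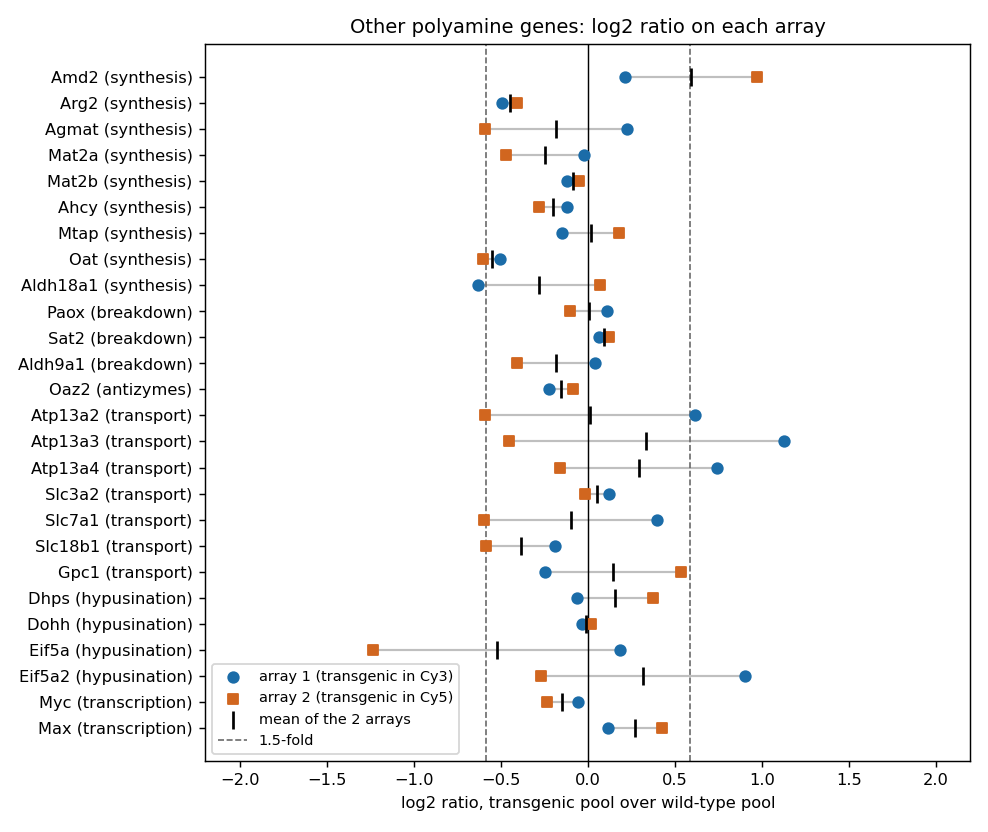
Log2 ratio on array 1 (circles) and array 2 (squares) with their mean (bar) for the 26 detected genes of the wider polyamine list; dashed lines mark 1.5-fold. No gene lies beyond a line on the same side on both arrays, and 15 of the pairs straddle 0.

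Markers of the tissue and of other cells were read beside these values. The luminal keratins Krt8 (−0.01 ± 0.19) and Krt18 (−0.22 ± 0.32), probasin (Pbsn, −0.32 and 1.39, 0.54 ± 1.21) and Msmb (−0.86 ± 0.37) were well above background in both pools on both arrays. A second Krt8 probe, also well above background throughout, gave 0.91 on array 1 and −1.32 on array 2, of opposite sign. Of 9 luminal markers 1 was lower (Hoxb13) and 1 higher (Tmprss2, 0.62 and 1.63). A second Tmprss2 probe gave 0.25 and −0.81, and Tmprss2 was not called with the mean over probes, by the scanner software's ratios, by the deposited table or with median centring. Of 8 prostatic secretory products 3 were lower (Msmb, Spink1 and Spink5), and Msmb was not called without background subtraction, with scaling between arrays, by the scanner software's ratios or by the deposited table. Of the luminal markers Krt8 and Krt18 were thus not called, while Hoxb13, like Sbp, was called lower. Whether the share of luminal cells differed between the pools was not tested. Of 9 seminal vesicle genes 8 were on the array and 1 was detected, Ceacam10. It was called lower, but its probe exceeded background on 1 of the 2 arrays in the transgenic pool, so its detection rests on the wild type pool. Among non-epithelial markers, 3 of 4 detected adipocyte genes (Adipoq, Cfd and Fabp4) and 2 of 5 myeloid genes (Lyz1 and Cd74) were called lower. So was 1 of 2 lymphoid genes (Jchain), where 1.3% of all detected genes were called lower. The lists were chosen with earlier results of these data known, so nothing is read from these counts. Adipoq, Cfd, Lyz1 and Jchain exceeded background on 1 of the 2 arrays in the transgenic pool, so they passed the filter through the wild type pool, where they were higher. With detection required in both pools, Fabp4 and Cd74 were the called genes of these lists. The summed signal of the adipocyte list was 1436 and 1093 in the transgenic pool, against 5551 and 6237 in the wild type pool. That of the myeloid list was 958 and 1125 in the transgenic pool, against 2494 and 3745 in the wild type pool, and that of the lymphoid list was 279 and 330 in the transgenic pool, against 873 and 838 in the wild type pool. Plin1, Lyz2, Adgre1 and Cd3e, also in these sums, likewise exceeded background on 1 of the 2 arrays in the transgenic pool. Genes that passed the filter through the wild type pool tilt the sums toward that pool, so nothing is read from them. Of the defining markers, Lep (adipocytes) and Ms4a1 (B cells) were not detected in either pool, and Cd68 (macrophages) had no matched probe. No call was made among 3 basal, 6 stromal and 3 endothelial markers. The part of the adipocyte, myeloid and lymphoid markers in the lower Sbp and Sbpl signals was not tested.

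Sbp and Sbpl were called lower under each of the 11 alternatives at which their ratio was read, with mean log2 ratios of −4.25 to −2.88 for Sbp and −3.22 to −1.25 for Sbpl. Some of these alternatives could not change the call. With 1 probe per gene, the changes of filter and the mean over probes returned the same values. Each array alone was already past 1.5-fold by the rule, and the deposited ratios matched those of the scanner software. Median centring in place of loess gave the lowest mean ratio of both genes. It put Sbp at −2.98 on array 1 and −5.51 on array 2, and Sbpl at −1.38 on array 1 and −5.05 on array 2. The values on array 1 were close to those given above. The same setting moved Odc1 to −0.83 and Srm to −0.91, and gave 2 higher and 554 lower calls among all detected genes. Over all detected genes, 95 were called higher and 136 lower as reported here. The log ratios of the scanner software gave 247 higher and 627 lower, and the authors' deposited table gave 178 higher and 119 lower.

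**Figure D5:**
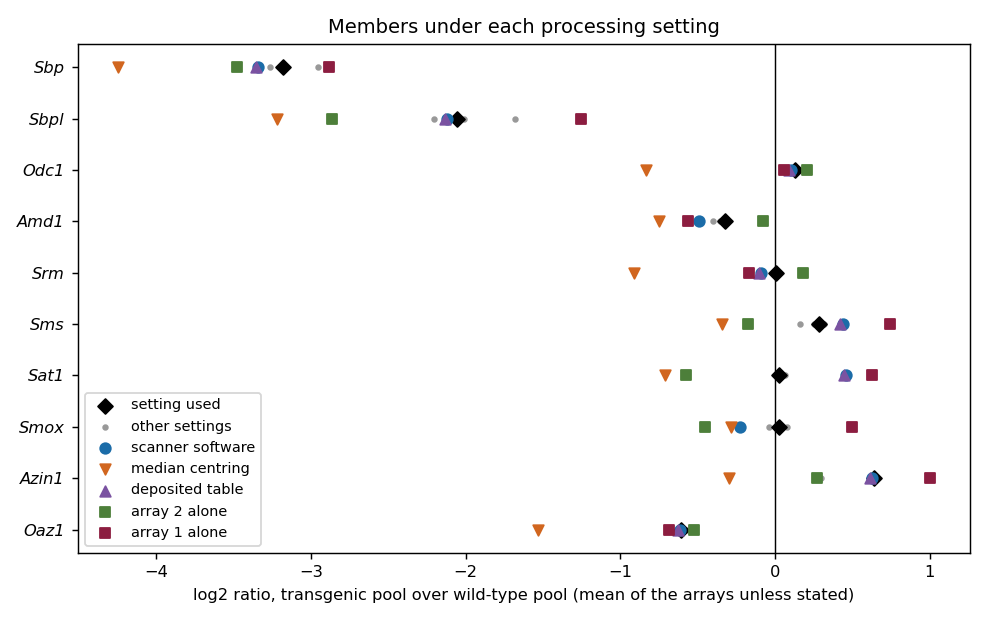
Log2 ratio of each of the 10 genes under the setting used (diamonds) and the alternatives, with array 1 alone and array 2 alone as squares. All points of Sbp, Sbpl, Amd1 and Oaz1 lie left of 0, and those of the other 6 genes fall on both sides.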

How the data were processed

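Total RNA of the 2 pools was labelled for 2-colour Agilent arrays, and the scanner files were made with Feature Extraction, per the file headers. The deposited median spot and background signals are unnormalized intensities. The deposited log10 ratios of Cy5 over Cy3, and their errors, come from the scanner software's background-subtracted, dye-normalized signals, per the file headers. The authors' deposited table holds log2 ratios that matched these, turned to transgenic over wild type (r and slope of 1, median 0 on each array). How its rows were filtered was not stated.

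With limma 3.58.1 (R 4.3.3), median signals (used because no column of means was found) were corrected by normexp (offset 50) and within-array loess, giving control and outlier spots a weight of 0. Array 1 was turned so that each ratio is transgenic over wild type, by the dyes in the labels. Pool signals were scaled with Aquantile. A gene took its brightest detected probe. Probes were named through RefSeq accessions (27816 of 41174 matched). On array 1, 58.3% of spots exceeded background in Cy3 and 42.1% in Cy5, and on array 2 57% in Cy3 and 21.1% in Cy5. The number of arrays limits the precision. The script was tested on simulated data. All 10 genes are named, as are the wider-list genes with the 4 largest ratios, the 3 nearest genes to Sbp and Sbpl, and called markers; some marker genes are not reported here. The genes and lists were chosen with earlier results of these data known.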

Additional observations from a re-analysis of the deposited data

How the results depend on the processing

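The calls of Sbp and Sbpl held under all alternatives, some of which could not change them, and no call of the 10 genes was reversed. The count of called genes among the 10 was 2 in the setting used and 2 to 6 on single arrays, the 6 on array 1 alone being Sbp, Sbpl, Sms, Sat1, Azin1 and Oaz1. It was 3, with Oaz1 added, by the scanner software's ratios, by the deposited table and with median centring. Over all detected genes the count was 231. It was 389 with an offset of 16, 874 by the scanner software's ratios, 556 with median centring, 62 with a 2-fold rule and 1403 to 2113 on single arrays. Of the wider polyamine list 0 genes were called, against 1 with median centring (Aldh18a1) and 5 to 6 on single arrays. Of the markers 12 were called, against 7 in the deposited table, 7 with detection in both pools and 18 to 20 on single arrays. The deposited table and detection in both pools each left 25 of the 41 markers to test. The cause of the other changes was not tested. Amd1 and Smox have no value in the deposited table or with detection in both pools. Cy5 was dim on array 2 (median net intensity 10, and 26 on array 1), which limits the dim genes Amd1 and Smox and the dimmer Sms probe.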
